A study of Mus musculus with 20 samples.

Results

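Old mice that received the senolytic pair dasatinib plus quercetin (D + Q) were compared after mechanical overload (MOV) of the plantaris, a hindlimb muscle, and after sham surgery. The comparison held 5 D + Q MOV mice and 5 D + Q sham mice, which were different animals, out of 20 mice in the series. The other 10 mice received vehicle, 5 with MOV and 5 with sham surgery, and their values stand beside those of the D + Q mice where they are given. Of the 22660 genes in the count table, 14913 entered the comparison because 5 or more of the 10 D + Q mice reached 10 counts. The 641 genes just inside this limit, with 10 counts in exactly 5 mice, had median levels of 19.2 counts in MOV and 4.6 counts in sham, and the 378 just outside, with 10 counts in exactly 4 mice, had 11.7 and 5 counts. A gene silent in one group could enter through the other group alone, so no count below covers all genes of the table.

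All mice were labeled as 2 years old and were male C57BL/6J mice. Bilateral surgery removed part of the gastrocnemius and soleus, the muscles that share the work of the plantaris, and the sham operation opened the skin only. Part of each synergist was left in place, and the nerve and vessels were spared. Dasatinib, a tyrosine kinase inhibitor, was given by gavage at 5 mg/kg together with quercetin, a plant flavonoid, at 50 mg/kg on days 7 and 10, and the plantaris was collected on day 14. For sham mice the series text puts that last dose on day 14 instead, so its timing in the D + Q sham mice is uncertain. Every mouse of the comparison received D + Q, so it does not contrast treated with untreated mice. If the day of the last dose differed, its effect cannot be told apart from that of surgery.

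A loaded muscle adds contractile protein to its fibers, remodels the connective tissue that carries force to the tendon, and fills with macrophages and dividing stromal and stem cells. The plantaris of the mouse is built mostly of fast fibers with the heavy chain encoded by Myh4, and long loading is known to move such fibers toward slower and more oxidative types and to bring back embryonic isoforms. Senescent cells are cells that have left the cell cycle for good, often with the inhibitors p21 (Cdkn1a) and p16 (Cdkn2a), and senolytics are drugs meant to kill them.

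Total counts ran from 18879818 to 23076398 in D + Q MOV mice and from 18535681 to 23468048 in D + Q sham mice (two-sided exact permutation test, p = 0.357). Levels are given as counts per 1000000 counts (CPM) of the library total after TMM scaling, a correction for differences in RNA composition, and values of single mice are listed in the order of mice 1 to 5. The samples carried markers of skeletal muscle, since the 10 muscle fiber markers took 8.56 to 10.2% of all counts in MOV and 12.5 to 14.1% in sham. These markers cannot tell the plantaris from its neighboring muscles. Within the D + Q groups Spearman correlations between mice were 0.988 or more. D + Q sham mouse 2 lay toward the MOV mice in several genes that MOV raised, such as Chrng, Actc1, Mki67, Col1a1 and Col3a1. Its collagen share of 0.107% of counts compared with 0.0422 to 0.0608% in the other 4 sham mice. Results that touch these genes are therefore also given without that mouse, and leaving it out changed the total number of called genes from 9743 to 9446.

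MOV changed 9743 of the 14913 genes in D + Q mice, which is 65.3% of them, at an adjusted p under 0.05 (edgeR quasi-likelihood test with Benjamini-Hochberg adjustment, the source of every adjusted p below). Of these, 5129 were higher in MOV (34.4% of all genes tested) and 4614 were lower (30.9%). Large changes were mostly rises, with 2867 called genes at least 2-fold higher and 445 at least 2-fold lower. A test against a change of 1.5-fold called 3847 genes (25.8%), 3024 of them higher (20.3%) and 823 lower (5.52%). In 7789 genes (52.2%) the 5 MOV mice and the 5 sham mice did not overlap, with MOV above in 4180 (28%) and below in 3609 (24.2%). The split of rises and falls depended on scaling. The 10 genes with most counts took 17.4% ± 0.757 (SD, n = 5) of counts in MOV and 23.7% ± 0.241 (SD, n = 5) in sham, and with total counts in place of TMM the median log2 change of all genes moved from 0.02 to 0.39 and 83.5% of called genes were higher instead of 52.6%. A gene list with a median near zero can therefore take either sign, and this is said where it occurs. Counts of called genes in the lists below stand against 34.4% higher and 30.9% lower over all genes tested. A list near those shares shows no more calls than genes at large.

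Among genes without overlap between groups and with a mean of at least 10 CPM in either group, most of the 10 largest rises were in genes of matrix and connective tissue cells. C1qtnf3 (chromosome 15, 10952290 to 10980238, GRCm39), which encodes a secreted C1q and TNF related protein of cartilage and tendon, was at 280.4, 239, 361, 313 and 419 CPM in the D + Q MOV mice and 0.576, 1.34, 0.437, 2.04 and 1.77 CPM in the D + Q sham mice. Every MOV mouse lay far above every sham mouse (log2 fold change 8.02 ± 0.33 (SE), adjusted p = 2.82e-08). Fbn2, a fibrillin of developing microfibrils, rose by 7.36 on the log2 scale from 3, 7, 1, 6 and 0 counts in the sham mice, so its fitted size leans on few counts. Lrrc15, a membrane protein of activated fibroblasts, rose by 6.81, Adam12, a membrane metalloprotease of mesenchymal cells, by 6.72 and Cthrc1, a secreted collagen-repeat protein, by 6.36. Mest, an imprinted gene of growing mesoderm, rose by 6.28. The rest of the 10 were Postn, Tnn, Ccn4 and Tnc, described with the matrix genes below.

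The 10 largest falls under the same conditions were smaller than the rises. Ces1d, a carboxylesterase that hydrolyzes lipids, was at 4.56, 4.07, 2.34, 4.33 and 1.45 CPM in the D + Q MOV mice and 19.9, 32.6, 19, 19.8 and 23.8 CPM in the D + Q sham mice, and the groups did not overlap (log2 fold change -2.77 ± 0.28 (SE), adjusted p = 1.07e-05). Slc15a5, a member of the peptide transporter family, fell by 2.34, Ryr3, a calcium release channel, by 2.03 and Inmt, a methyltransferase, by 2.02. Neto2, an auxiliary subunit of glutamate receptors, fell by 1.99, and Pfkfb3, which makes the activator of phosphofructokinase, fell by 1.97. Wnt4, a ligand expressed by adult muscle fibers, was at 9.4, 8.25, 9.39, 9.57 and 8.61 CPM in MOV and 27.6, 35.1, 37.6, 44.5 and 33.8 CPM in sham. It fell by 1.98 with a standard error of 0.11. Amd1, Amd2 and Dbp, also among the 10, are described with polyamines and the clock.

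**Figure D1:**
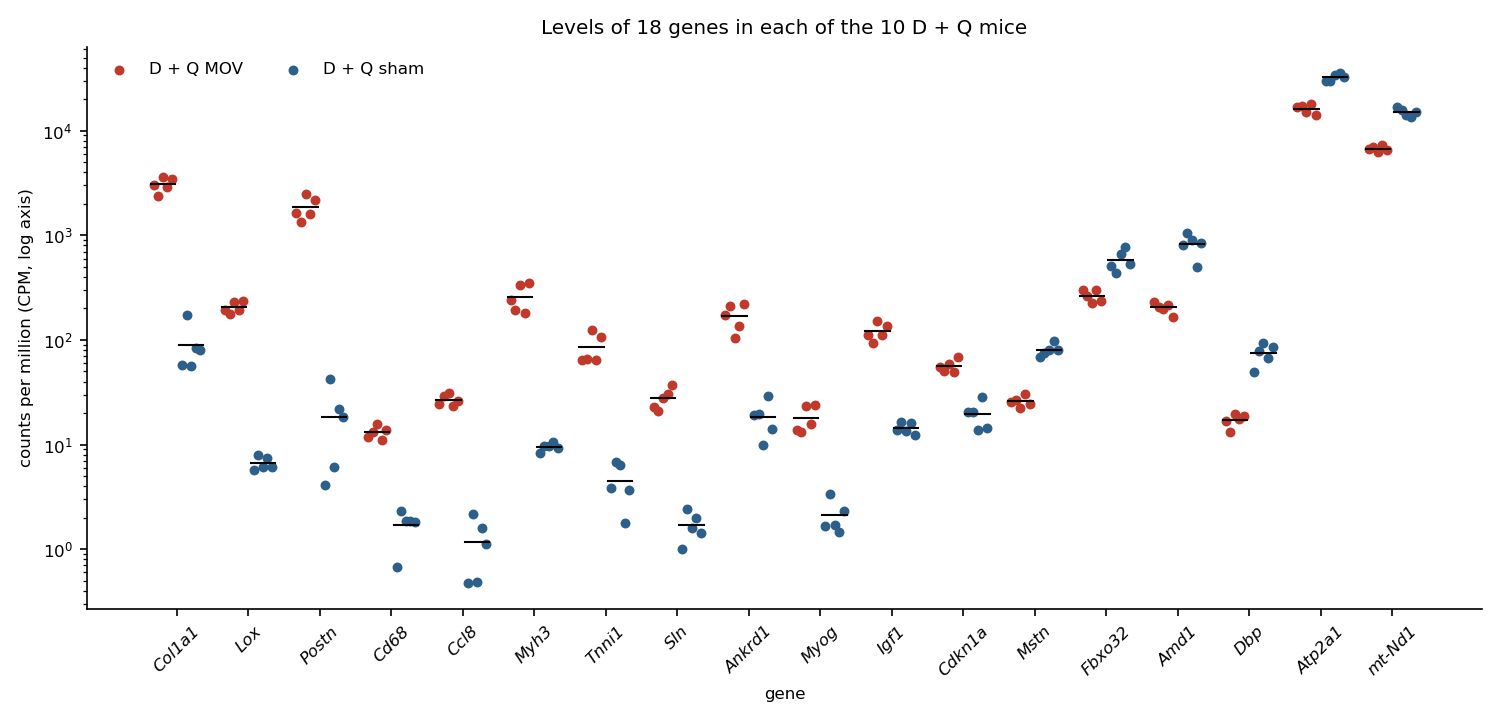
CPM on a log axis of 18 genes in each of the 5 D + Q MOV mice (red) and 5 D + Q sham mice (blue), with a black line at each group mean. From Col1a1 to Cdkn1a all MOV mice sit above all sham mice, and from Mstn to mt-Nd1 all MOV mice sit below them.

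Of the 63 gene lists, collagens had the highest median. All 15 fibrillar and fibril-associated collagen genes rose, with a median log2 change of 4.59 against 0.02 over all genes tested, and all 15 rose without D + Q sham mouse 2, with a median of 4.72. Col1a1 (chromosome 11, 94827050 to 94843868), which encodes the main chain of type I collagen, was at 2995, 2363, 3588, 2891 and 3485 CPM in the D + Q MOV mice and 57.1, 173, 56.2, 83.9 and 80.6 CPM in the D + Q sham mice. The sham mouse with the highest Col1a1 was mouse 2, and it was still far below the lowest MOV mouse. Col1a1 rose by 5.09 ± 0.37 (SE) on the log2 scale (adjusted p = 2.56e-06), or 5.46 without that mouse. Col3a1, the chain of type III collagen, was at 5655, 5085, 6656, 5273 and 5828 CPM in MOV and 107, 413, 131, 194 and 182 CPM in sham. Here too mouse 2 stood above the other sham mice, and the log2 fold change was 4.79 with it and 5.21 without it. Col12a1, a fibril-associated collagen of tendon and loaded tissue, had the largest rise of the list (5.62 ± 0.28 (SE)), and Col5a3 the smallest (1.97). Together these 15 genes took 1.73% ± 0.299 (SD, n = 5) of all counts in MOV and 0.0625% ± 0.0259 (SD, n = 5) in sham (two-sided exact permutation test, p = 0.00794, the smallest that 5 mice against 5 allow).

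**Figure D2:**
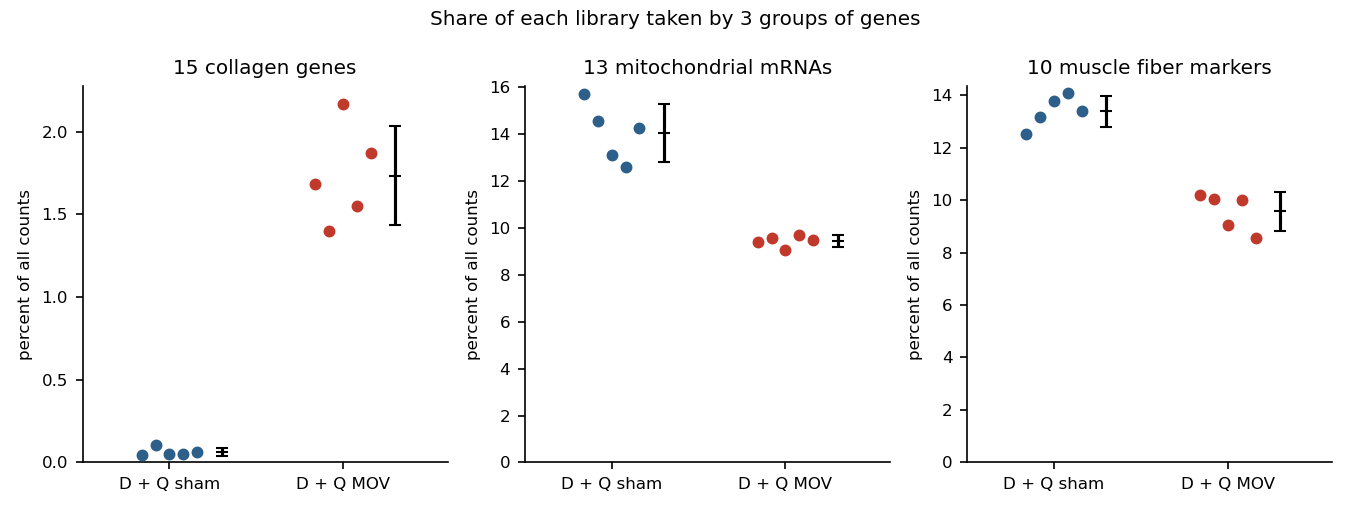
Percent of all counts of each D + Q mouse that fell on 15 collagen genes, the 13 mRNAs of the mitochondrial genome and 10 muscle fiber markers, with points for mice and bars for mean and SD (n = 5). The collagen share rose from 0.0625 to 1.73% while the mitochondrial share went from 14.1 to 9.45% and the fiber marker share from 13.4 to 9.57%, with no overlap between groups in any panel.

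Enzymes that process and crosslink collagen moved with the collagens. All 17 rose (median 2.50). Lox, lysyl oxidase, which starts the crosslinks between collagen molecules, was at 194, 176, 231, 191 and 234 CPM in the D + Q MOV mice and 5.65, 8.02, 6.06, 7.47 and 6.14 CPM in the D + Q sham mice. Neither group spread widely, and the log2 fold change was 4.95 ± 0.11 (SE) (adjusted p = 1.09e-13). P4ha3, a prolyl hydroxylase subunit, rose by 5.75 from 0–1.03 CPM in sham to 12.6–20.1 CPM in MOV, and Plod2, a lysyl hydroxylase, by 4.77. The smallest rises were those of P4ha1 (0.26) and P4ha2 (0.30), the other prolyl hydroxylase subunits.

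Matricellular proteins, which sit in the matrix and signal to cells, all rose as well (15 of 15, median 3.89). Postn, periostin of loaded and healing tissue, was at 1634, 1349, 2501, 1612 and 2190.4 CPM in the D + Q MOV mice and 4.13, 42.3, 6.06, 21.6 and 18.4 CPM in the D + Q sham mice. Sham mice differed widely among themselves, with mouse 2 highest (log2 fold change 6.66 ± 0.67 (SE), or 7.20 without sham mouse 2). Tnc, tenascin-C, was at 131, 96.9, 312, 97.4 and 293 CPM in MOV against 2.47–3.9 CPM in sham, a log2 fold change of 5.83 ± 0.52 (SE). MOV mice 3 and 5 had the highest Tnc, and the same mice had the highest Myh3, Tnni1 and Myog. Tnn, tenascin-W, and Ccn4, a secreted CCN protein, rose by 6.61 and 6.12 from 22 and 29 counts in all over the 5 sham mice. Spp1, osteopontin, rose less (2.90 ± 0.40 (SE)), as did Sparc, a collagen chaperone of the matrix (3.62).

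Among small leucine-rich proteoglycans, which bind collagen fibrils and growth factors, 10 of 11 rose (median 1.67). The largest rises were in Aspn, asporin (4.30), and Bgn, biglycan (3.89). Fmod, fibromodulin of tendon and muscle, was at 162, 138, 151, 171 and 164 CPM in the D + Q MOV mice and 46.9, 50.4, 56.8, 40.9 and 52.3 CPM in the D + Q sham mice, a log2 fold change of 1.67 ± 0.08 (SE). Dcn, decorin, was already abundant in sham at 246–375 CPM and reached 552–727 CPM, a rise of 1.08. Chad, chondroadherin, did not pass the test, at 4.36, 3.51, 3.0, 3.13 and 7.02 CPM in MOV and 4.34, 3.16, 6.89, 2.77 and 3.45 CPM in sham (0.02 ± 0.28 (SE), adjusted p = 0.95).

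The basement membrane, the sheet around each fiber, changed less evenly. Of 16 genes 13 rose and 1 fell, with a median of 1.58. Col18a1 (2.79) and Lamb1 (2.25) rose most, Lama5 fell by 0.66, and Col4a3 and Col4a4 did not pass the test (-0.34 and -0.54). Of 20 tested matrix proteases and inhibitors, 16 rose and 3 fell. Mmp14, a membrane collagenase that activates Mmp2, was at 200.1, 145, 227, 146 and 184 CPM in the D + Q MOV mice and 14, 20.7, 16.2, 19 and 18.4 CPM in the D + Q sham mice, and Mmp2 itself rose by 3.49. Timp1, an inhibitor of these proteases, was at 18, 20.1, 22.3, 19.2 and 34.5 CPM in MOV and 0.733, 1.46, 0.388, 0.437 and 0.355 CPM in sham, with MOV mouse 5 above the rest. It rose by 5.13 ± 0.33 (SE), whereas Timp4, an inhibitor expressed in muscle and fat, fell by 1.52 and Mmp9, the gelatinase of neutrophils, fell by 1.71 from 0.679–1.62 CPM. Plau, the urokinase plasminogen activator, rose by 0.86 ± 0.11 (SE). Without sham mouse 2 the list counts were 13 and 1 for the basement membrane and 14 and 2 for the proteases.

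In 13 genes of TGF-beta ligands, receptors and latent binding proteins, the pathway that drives matrix production in fibroblasts, 11 rose and 0 fell (median 1.36). Ltbp2, a latent binding protein, rose most (4.22), followed by the TGF-beta target Ccn2 (2.87), while Tgfb1 rose by 2.19. Tgfb2 and Tgfbr1 did not pass the test (-0.01 and -0.02).

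Cell type markers moved in the same muscles. In whole muscle, more cells of a type and more RNA per cell cannot be told apart. All 10 macrophage markers rose (median 2.81), and their summed level was 495 to 586 CPM in MOV and 55 to 131 CPM in sham. Cd68, a lysosomal protein of macrophages, was at 11.9, 13.1, 15.6, 11 and 13.6 CPM in the D + Q MOV mice and 0.68, 2.31, 1.84, 1.84 and 1.83 CPM in the D + Q sham mice. Sham mouse 1 had the lowest Cd68 and mouse 2 the highest, and all sham mice were far below MOV (log2 fold change 2.94 ± 0.20 (SE)). Adgre1, which encodes F4/80, rose by 3.48, Lyz2, lysozyme of myeloid cells, by 2.69 and Csf1r, the receptor that macrophages need to survive, by 2.29. Cd163, the hemoglobin scavenger receptor of resident macrophages, rose least and with overlap, at 7.84–14.5 CPM against 6.99–9.48 CPM (0.49 ± 0.15 (SE), adjusted p = 0.00954). Without sham mouse 2, 10 of the markers rose with a median of 2.98.

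Other immune cells had fewer measured markers. Antigen presentation genes of dendritic cells rose (5 of 6 tested, summed level 529 to 688 CPM in MOV and 52.8 to 156 CPM in sham), although macrophages also express most of them, and Clec9a did not pass the test (0.52). Of the T and NK cell markers, 3 of 9 were tested, Cd4 and Nkg7 rose (3.60 and 3.17) and Cd3e did not pass (-0.18), while Cd3d, Cd3g, Cd8a, Trac, Klrb1c and Lck had too few counts. For neutrophils 2 of 7 markers were tested, Csf3r rose (2.29) and S100a9 did not pass (-1.02). B cell markers were divided, since Cd79b rose (1.40), Ighm fell by 1.21 and Jchain did not pass (1.20). Of 5 mast cell markers tested 3 rose (median 0.78). None of the 5 erythrocyte genes passed the test (log2 changes -0.10 to 0.05).

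Stromal markers rose too. Among fibro-adipogenic progenitor and fibroblast markers 7 of 8 rose (median 1.49, summed level 1202 to 1614 CPM in MOV and 786 to 1326 CPM in sham), with Pi16 rising most (2.37) and Gsn not passing the test (-0.17). Tendon cell markers rose in 6 of 7 (summed level 869 to 1149 CPM in MOV and 110.0 to 123 CPM in sham). Tnmd, tenomodulin of tendon cells, was at 79.8, 66.5, 98.4, 70.2 and 113 CPM in the D + Q MOV mice and 5.97, 5.04, 4.9, 2.96 and 6.34 CPM in the D + Q sham mice, with no overlap (4.09 ± 0.23 (SE)), and Scx, the transcription factor of the tendon lineage, rose by 1.54. Part of the tendon or its sheath in the sample was not tested as a source of these reads. Of 6 adipocyte markers 3 fell (summed level 108 to 164 CPM in MOV and 324 to 416 CPM in sham), and Schwann cell markers were mixed, 2 higher and 1 lower of 7 (4 higher and 0 lower under total counts). Markers of pericytes and smooth muscle were mixed as well, 5 higher and 2 lower of 9 (median 1.24), while their summed level overlapped between groups (622 to 743 CPM in MOV and 645 to 761 CPM in sham), with Tagln, a contractile protein, rising most (1.79) and Abcc9, a potassium channel subunit, falling by 0.73. Slow-fiber markers that a remnant of soleus would carry also rose (5 of 6, summed level 627 to 1138 CPM in MOV and 189.8 to 301 CPM in sham), and whether soleus tissue came along in the dissection was not tested. Muscle fiber markers themselves fell in 7 of 10 and rose in 1 (median -0.58).

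Chemokines and their receptors rose in 18 of 21 genes tested and fell in 1 (median 2.50), and 5 more had too few counts to test. Ccl7, a monocyte attractant, was at 5.93, 7.38, 8.9, 9.39 and 14 CPM in the D + Q MOV mice and 0.471, 0.364, 0.291, 0.146 and 0.507 CPM in the D + Q sham mice. Ccl8, from the same family, reached 23.4–31.2 CPM from 0.471–2.19 CPM in sham (4.54 ± 0.28 (SE)). Ccl2, which recruits monocytes through Ccr2, rose by 3.07 ± 0.26 (SE), and Ccr2 by 2.84. The receptor Cx3cr1 rose by 4.04. Ccl11, the eosinophil attractant, fell by 0.53, and Ccl24 and Cxcl13 did not pass the test (-0.19 and -0.08). Il1b, the inflammatory cytokine, rose from 0–0.291 CPM to 1.17–5.57 CPM and entered the comparison through the MOV mice alone. Il6, Il1a and Tnf had too few counts to test.

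In the complement system 14 of 15 genes rose (median 2.01). C1qa, a chain of C1q made by macrophages, was at 79.7, 75.2, 95.2, 84.3 and 81.6 CPM in the D + Q MOV mice and 7.59, 15.2, 13.3, 12.3 and 11.2 CPM in the D + Q sham mice. Again sham mouse 2 was highest within its group, below the lowest MOV mouse (2.81 ± 0.14 (SE)). Cfb, factor B of the alternative pathway, rose most (3.36), C3, the central component, rose by 0.81 ± 0.20 (SE), and Cfd, adipsin of fat cells, did not pass the test (-0.72). Genes of lysosomes and phagocytosis rose in 14 of 18 and fell in 3 (median 1.26). Trem2, a lipid receptor of phagocytes, rose by 3.69 and Ctsk, a collagen-degrading cathepsin, by 3.62, while the scavenger receptor and fatty acid carrier Cd36 fell by 0.65 and the general lysosomal genes Lamp1 and Ctsd fell by 0.13 and 0.16. Under total counts 17 of the list rose and 1 fell.

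Interferon-stimulated and MHC class I genes rose in 17 of 19, with a median of 1.38 in D + Q mice and 0.79 in vehicle mice. Oas1a (3.05) and Mx1 (2.88), both induced by interferon, rose most, whereas Rsad2 and Gbp2 did not pass the test (0.07 and 1.10).

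**Figure D3:**
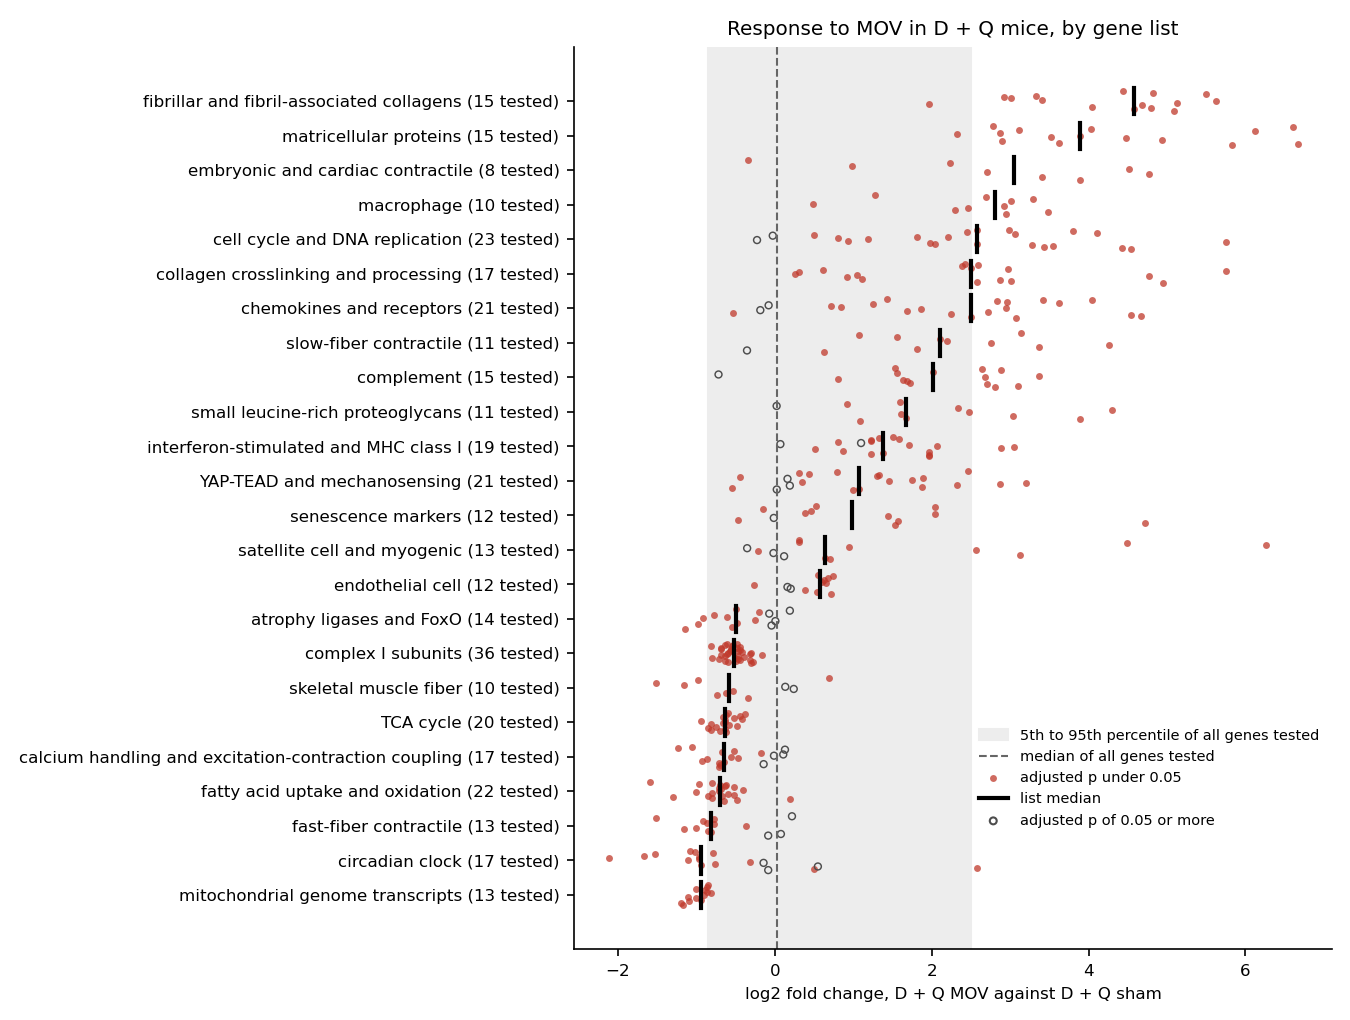
Log2 fold change of D + Q MOV against D + Q sham for the tested members of 24 gene lists, with filled points for genes at an adjusted p under 0.05, open points for the others, a black bar at each list median, the median of all genes tested (0.02) as a dashed line and the 5th to 95th percentile of all genes (-0.86 to 2.50) in gray. Collagens (median 4.59) and matricellular proteins (3.89) lie at one end, and the mitochondrial genome and the clock (both -0.94) at the other.

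Turning to the fibers, the balance of myosin heavy chains shifted away from the fastest isoform. Shares are given per gene length among 6 heavy chain genes, which are similar enough in sequence that reads could be divided between them with error. Myh4, the fast IIb chain, made up 74.2, 81.7, 84.7, 82.4 and 78.4% in the sham mice and 53, 51.2, 57.3, 57.3 and 45.8% in the MOV mice. Every MOV mouse was below every sham mouse. Myh1, the IIx chain, made up 18.9, 13.7, 10.7, 14.4 and 16.6% in sham and 34, 34.1, 28.9, 30.8 and 35.2% in MOV, and Myh2, the IIa chain, had a mean share of 4.76% ± 1.28 in sham and 12.7% ± 2.29 in MOV (SD, n = 5 each). The share of Myh7, the slow type I chain, was 0.0515% ± 0.0332 in sham and 0.882% ± 0.385 in MOV (SD, n = 5 each). Every one of these shares gave the smallest p that exact permutation of 5 mice against 5 allows (p = 0.00794).

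By level rather than share, Myh4 fell by 1.51 on the log2 scale with a standard error of 0.10 (adjusted p = 9.89e-10), and its level in CPM was 23539.7, 23192, 20819, 25639.5 and 16776 in MOV against 57575, 61354, 65966, 67443 and 61864 in sham. The level of Myh1 overlapped between groups (13283–19598 CPM in MOV, 10550.3–18609.8 CPM in sham) and did not pass the test (log2 fold change 0.22 ± 0.15 (SE), adjusted p = 0.205), although with total-count scaling it did (0.58, adjusted p = 0.00344). Myh2 rose by 0.50 ± 0.18 (SE) with overlap (adjusted p = 0.0286), a call that was lost without MOV mouse 2, MOV mouse 5, sham mouse 2 or sham mouse 3 (adjusted p = 0.0613, 0.0735, 0.0550 and 0.0569 from edgeR). Myh7 rose by 3.14 ± 0.55 (SE) while its sham levels ran from 7.52–81 CPM. Over the myosin heavy chain list, 5 genes rose and 2 fell of 9. The other members were Myh7b, which rose by 1.40, Myh13 of eye muscles, which fell by 0.91, and cardiac Myh6, which did not pass the test (-0.19).

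**Figure D4:**
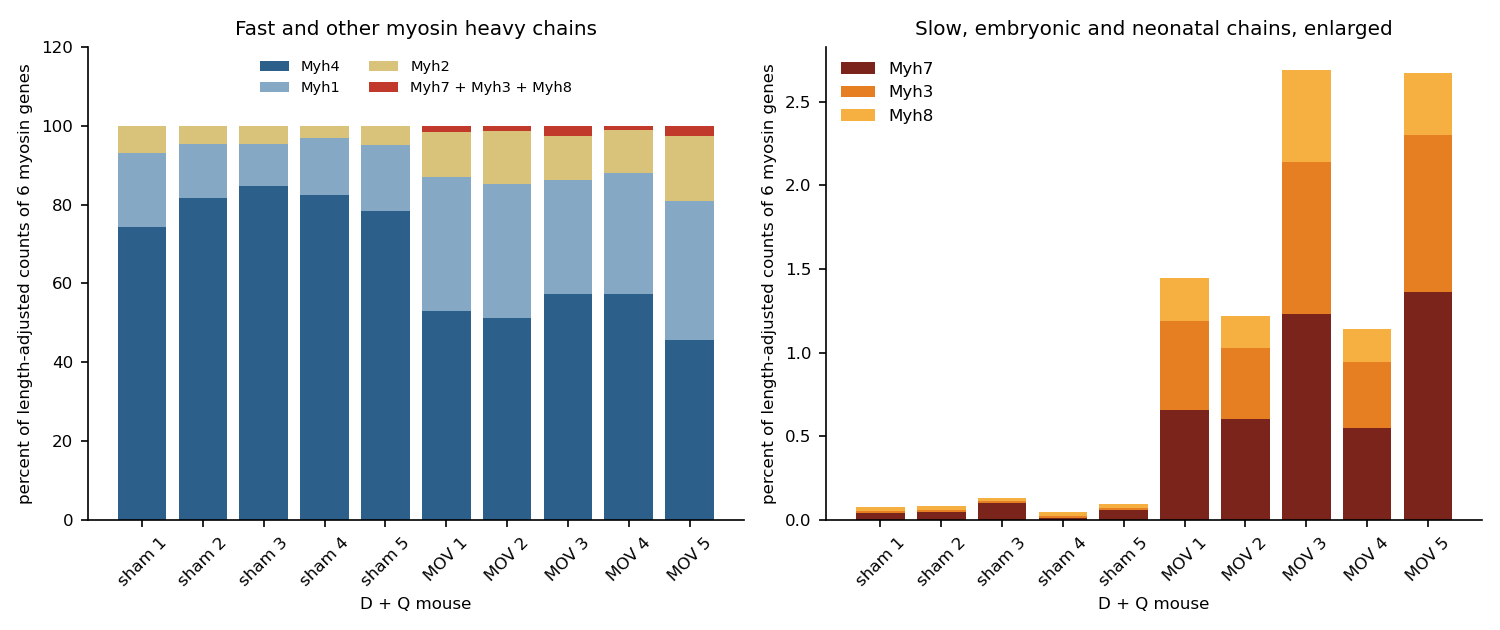
Percent of length-adjusted counts of 6 myosin heavy chain genes in each D + Q mouse, stacked, with all chains on the left and Myh7, Myh3 and Myh8 enlarged on the right. Myh4 went from a mean of 80.3% in sham to 52.9% in MOV, Myh1 from 14.9 to 32.6% and Myh3 from 0.0119 to 0.639%.

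A list of embryonic and cardiac isoforms of contractile proteins, which mark growing or regenerating fibers, also held skeletal actin. Of its 8 genes 7 rose (median 3.05 with D + Q and 3.77 with vehicle). Myh3 (chromosome 11, 66969126 to 66993117), the embryonic heavy chain, was at 239, 195, 334, 180.3 and 347 CPM in the D + Q MOV mice and 8.27, 9.78, 9.6, 10.5 and 9.18 CPM in the D + Q sham mice. The sham mice were nearly alike and MOV mice 3 and 5 were highest. Myh3 rose by 4.77 ± 0.23 (SE) (adjusted p = 7.8e-08), and Myh8, the neonatal chain, by 2.70 ± 0.27 (SE). Tnnt2, cardiac troponin T, rose by 4.52 and Actc1, cardiac actin, by 3.89 ± 0.53 (SE). Actc1 stood at 3.45, 25.8, 6.06, 9.36 and 7.2 CPM in sham, and without sham mouse 2, the highest, its rise was 4.52. Acta1, skeletal actin, is neither embryonic nor cardiac and was the member that did not rise. It fell by 0.34 (16500.2–21793 CPM in MOV, 23571–25581 CPM in sham), a direction that total-count scaling turned (0.02).

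Slow-fiber contractile genes rose in 10 of 11 (median 2.11 with D + Q and 1.74 with vehicle). Tnni1 (chromosome 1, 135707172 to 135738727), slow troponin I, was at 64.7, 66.4, 126, 63.6 and 106 CPM in the D + Q MOV mice and 3.87, 6.8, 6.35, 1.8 and 3.65 CPM in the D + Q sham mice, a log2 fold change of 4.26 ± 0.37 (SE). Tnnc1, slow and cardiac troponin C, rose by 3.37 ± 0.40 (SE) and Tnnt1, slow troponin T, by 2.75 ± 0.35 (SE). Atp2a2, the calcium pump of slow fibers, rose by 2.11. Sham mouse 4 had the least of all the slow genes just named and of Myh7, and all MOV mice lay above all sham mice in each. Myl3, a slow light chain, did not pass the test (-0.35). In vehicle mice Myh7 did not pass (1.74, adjusted p = 0.144), and the test of the difference between treatments did not pass either (1.36, adjusted p = 0.931).

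The fast-fiber list went the other way, with 10 of 13 genes lower and 0 higher (median -0.82). Under total-count scaling 9 were lower and 3 higher. Atp2a1, the fast calcium pump, was at 16768, 17178, 14977, 17845 and 14244 CPM in MOV and 29842, 29949, 34199, 35966 and 32591 CPM in sham, so it fell by 1.00 with a standard error of 0.09. Tnnt3, Tnni2 and Tnnc2, the fast troponins, fell by 1.16, 0.86 and 0.82. The light chains Myl1 and Mylpf did not pass the test (-0.08 and 0.08).

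Of the small membrane peptides that restrain the calcium pump, sarcolipin (Sln) was at 22.9, 20.8, 27.6, 30.7 and 36.7 CPM in the D + Q MOV mice and 0.994, 2.43, 1.6, 1.99 and 1.42 CPM in the D + Q sham mice, a rise of 4.05 ± 0.22 (SE) (adjusted p = 5.3e-09). Myoregulin (Mrln) moved in the opposite direction, from 35.4–45.6 CPM in sham to 12.3–17.7 CPM in MOV, and fell by 1.39. Phospholamban (Pln) was at 0.513–1.49 CPM in MOV and 1.03–1.83 CPM in sham and did not pass the test (-0.27 ± 0.31 (SE)). Strit1, which encodes a peptide that relieves the pump, had too few counts to test.

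Proteins of the Z-disc and the titin spring that respond to stretch were mixed (9 higher and 5 lower of 19, median 0.23 with D + Q and 0.94 with vehicle). Under total counts 14 were higher and 2 lower. Over all genes tested with TMM scaling, 34.4% were higher and 30.9% lower. Ankrd1 (chromosome 19, 36089352 to 36097506), an ankyrin repeat protein bound to titin, was at 174, 212, 104, 135 and 219.7 CPM in the D + Q MOV mice and 19.2, 19.7, 9.94, 28.8 and 14.1 CPM in the D + Q sham mice. Its relatives differed, since Ankrd2 rose by 1.95 ± 0.29 (SE) and Ankrd23 fell by 0.64. Csrp3, muscle LIM protein, was at 417, 606, 343, 461 and 624 CPM in MOV and 120.2, 95.9, 68.7, 88.8 and 100.3 CPM in sham, a rise of 2.37 ± 0.21 (SE). With vehicle the rise was 3.46, and the difference between treatments was -1.12 (unadjusted p = 0.00802, adjusted p = 0.718 from edgeR), which does not pass after adjustment. Fhl2, a LIM protein of the sarcomere, rose most (3.37), Tcap, the titin cap, fell by 0.91, and Des, Flnc, Nrap, Xirp2 and Cryab did not pass the test. Cryab, a small heat shock protein that holds desmin, was at 516–762 CPM in MOV and 489–632 CPM in sham (0.17 ± 0.10 (SE), adjusted p = 0.145).

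Genes of the YAP and TEAD pathway, which turns stretch into transcription, rose in 16 of 21 and fell in 2 (median 1.08). Promoters of 3 of its risen members are shown because each holds CATTCC, the M-CAT core that TEAD factors bind, or its reverse complement GGAATG. The letters end at the base before the annotated start (RefSeq, GRCm38.p6), and capitals mark the matches. Their coordinates are on GRCm38.p6 and cannot be set against the gene positions given elsewhere, which are on GRCm39. They come from Ankrd1 (chr19:36119845-36120064, minus strand), Ccn1 (chr3:145649986-145650205, minus strand) and Amotl2 (chr9:102717584-102717803, plus strand).
Ankrd1: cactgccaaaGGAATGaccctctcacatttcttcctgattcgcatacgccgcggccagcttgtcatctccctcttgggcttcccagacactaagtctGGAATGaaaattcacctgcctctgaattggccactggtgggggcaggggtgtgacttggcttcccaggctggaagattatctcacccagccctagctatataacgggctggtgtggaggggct
Ccn1: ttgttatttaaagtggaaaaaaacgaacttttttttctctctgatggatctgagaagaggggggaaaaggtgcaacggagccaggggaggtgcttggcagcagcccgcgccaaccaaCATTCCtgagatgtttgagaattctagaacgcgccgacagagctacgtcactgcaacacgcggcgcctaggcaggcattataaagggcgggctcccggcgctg
Amotl2: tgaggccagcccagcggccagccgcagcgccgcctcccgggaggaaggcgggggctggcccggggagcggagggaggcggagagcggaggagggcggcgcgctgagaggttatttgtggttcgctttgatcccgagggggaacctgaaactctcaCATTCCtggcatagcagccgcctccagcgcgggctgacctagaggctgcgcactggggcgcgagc

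In Ankrd1 the matches began 210 and 123 bases before the start, in Ccn1 103 and in Amotl2 65 bases before it. Of the 17 listed genes with a promoter in the table, 10 held the motif within 250 bases before to 50 after a start, against 16.6% of all 27025 symbols and 14.7% of all 32851 promoters, and the 10 include Yap1, which did not pass the test. Ccn1, a matricellular target of YAP, was at 97.7, 101, 81, 84.4 and 202 CPM in the D + Q MOV mice and 26.2, 14.8, 12.3, 27.4 and 31.8 CPM in the D + Q sham mice. MOV mouse 5 stood far above the others, and the rise was 2.33 ± 0.37 (SE). Amotl2, a junction protein that binds YAP, rose by 1.45 ± 0.17 (SE) and Vgll3, a TEAD cofactor, by 1.89. Itga5, the fibronectin receptor chain, rose by 2.47. Yap1 itself (0.02) and Tead4 (0.19) did not pass the test, although Yap1 did under total counts (0.39), and Tead1 fell by 0.54 and Srf, an actin-sensitive transcription factor, by 0.45.

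In the satellite cell and myogenic list, 9 of 13 genes rose and 1 fell (median 0.64). Pax7, the identity factor of muscle stem cells, was at 5.69, 5.25, 2.73, 4.93 and 3.22 CPM in the D + Q MOV mice and 3.77, 2.67, 2.52, 2.18 and 2.23 CPM in the D + Q sham mice, a rise of 0.71 ± 0.22 (SE) with overlap between groups (adjusted p = 0.00929). Myog (chromosome 1, 134217707 to 134220287), which drives the last steps of differentiation, was at 13.9, 13.2, 23.6, 15.9 and 23.7 CPM in MOV and 1.67, 3.34, 1.7, 1.46 and 2.33 CPM in sham. Its rise of 3.12 ± 0.26 (SE) compared with 0.12 for Myod1 and -0.02 for Myf6, neither of which passed the test, although Myod1 did under total counts (0.48). The fusion proteins were almost silent in sham. Mymk, myomaker, had 173, 141, 220, 137 and 211 counts in the MOV mice and 0, 6, 0, 3 and 0 in the sham mice. Mymx, myomixer, had 15, 27, 41, 35 and 32 counts in MOV and 0, 5, 0, 0 and 0 in sham. Both rose (adjusted p = 4.31e-08 and 2.79e-05), and both entered the comparison through the MOV mice alone. With so few sham counts the fitted log2 changes of 6.26 and 4.48 depend on the small count added in fitting. They became 7.46 and 7.84 without sham mouse 2. Megf10, a receptor of satellite cells, rose by 2.57, Cdh15, M-cadherin, fell by 0.22, and Calcr, the calcitonin receptor of quiescent satellite cells, did not pass (-0.35). Under total counts 11 of this list rose and 0 fell. The separate list of satellite cell markers, which shares several of these genes, had 4 higher and 1 lower of 7 (summed level 32.9 to 38.1 CPM in MOV and 29.2 to 33.3 CPM in sham).

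The growth factor Igf1 (chromosome 10, 87693642 to 87772904) was at 113, 92.6, 152, 111 and 135 CPM in the D + Q MOV mice and 13.8, 16.4, 13.5, 16 and 12.5 CPM in the D + Q sham mice. All MOV mice lay above all sham mice (log2 fold change 3.06 ± 0.14 (SE), adjusted p = 2.05e-09), and with vehicle the rise was 2.90. Igf2, the fetal ligand, rose by 3.29 ± 0.15 (SE), whereas the receptor Igf1r (0.14) and the adaptors Irs1 (0.17) and Irs2 (0.31) did not pass the test and Insr, the insulin receptor, fell by 0.46. Among the binding proteins Igfbp2 rose from 0–0.146 CPM to 0.644–1.15 CPM, having entered the comparison through the MOV mice alone. Igfbp4 rose by 2.72, while Igfbp5 did not pass (-0.25 ± 0.12 (SE), adjusted p = 0.094), with sham mouse 4 at 450.3 CPM below the other 4. Without that mouse it fell by 0.36 (adjusted p = 0.000316), and by DESeq2 it passed as well (-0.27, adjusted p = 0.0395). In all 8 of 13 genes of the axis rose and 1 fell. Under total counts 11 rose and 0 fell, so the fall of Insr was not called there.

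Mstn (chromosome 1, 53100799 to 53107240), myostatin, the muscle-made brake on growth, was at 25.5, 26.8, 22.3, 30.4 and 24.4 CPM in the D + Q MOV mice and 68.9, 74.4, 80, 97.4 and 80.1 CPM in the D + Q sham mice. It fell by 1.63 with a standard error of 0.10 (adjusted p = 9.13e-10) and by 1.65 with vehicle. Fst, follistatin, which traps myostatin and activin, rose by 1.61 ± 0.17 (SE) from 3.2–6.9 CPM to 12.4–16 CPM. Inhba, the activin A chain, rose by 1.91, Fstl1 by 3.54 (3.81 without sham mouse 2) and Wfikkn2, another myostatin inhibitor, fell by 1.19. The receptors Acvr1b, Acvr2a and Acvr2b fell by 0.92, 0.65 and 0.82, the last with overlap and at an adjusted p of 0.0223 that rose to 0.141 with total-count scaling, 0.0526 without MOV mouse 2 and 0.0550 without MOV mouse 3. Of 15 genes of the axis, 6 rose and 5 fell, against 34.4% and 30.9% of all genes tested.

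Ubiquitin ligases and FoxO factors of muscle atrophy fell in 10 of 14 genes and rose in 0 (median -0.49). With total-count scaling 7 fell and 5 rose. Fbxo32, atrogin-1, was at 301, 263, 227, 299.7 and 233 CPM in the D + Q MOV mice and 507, 440.1, 663, 775 and 531 CPM in the D + Q sham mice. It fell by 1.14 with a standard error of 0.16, and Trim63, MuRF1, fell by 0.55 with a standard error of 0.09. Foxo1 did not pass the test (20.3–22.2 CPM in MOV, 19.4–23.3 CPM in sham, 0.37 under total counts, where it passed) while Foxo4 fell by 0.92.

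Glucocorticoid-responsive genes were divided, 4 higher and 7 lower of 14, and total-count scaling turned the sign of their median (-0.23 to 0.13). Ddit4, REDD1, an inhibitor of mTORC1, was at 8.88, 8.33, 12.3, 12.4 and 11 CPM in the D + Q MOV mice and 5.34, 3.95, 2.33, 6.65 and 7.3 CPM in the D + Q sham mice, a rise of 1.04 ± 0.25 (SE) without overlap. Mt2, a metallothionein, rose by 2.33, Fkbp5, a cochaperone of the glucocorticoid receptor, fell by 0.99 and Pdk4, which shuts pyruvate dehydrogenase, fell by 0.93. Sgk1, a kinase induced by steroid hormones, did not pass (0.04 ± 0.08 (SE), or 0.41 and past the test under total counts) and is taken up with the interaction.

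In nutrient sensing and mTOR genes 6 rose and 9 fell of 18 (median -0.22, 0.15 under total counts). Eef1a1, the elongation factor that adult fibers replace by Eef1a2, was at 1152, 942, 1297, 1003 and 1096 CPM in the D + Q MOV mice and 217, 319.8, 285, 313 and 246 CPM in the D + Q sham mice. It rose by 1.99 ± 0.11 (SE) and Eef1a2 fell by 0.49. Deptor, an inhibitor of mTOR, fell by 0.99, and Castor1, an arginine sensor, rose by 1.24. Ribosome biogenesis genes changed little, with 4 higher and 10 lower of 20, against 34.4% and 30.9% of all genes tested. Their median of -0.18 was turned to 0.18 by total-count scaling. Myc, their inducer, was at 5.53, 4.93, 7.18, 7.46 and 17.1 CPM in the D + Q MOV mice and 3.3, 3.4, 1.89, 3.78 and 2.59 CPM in the D + Q sham mice, and MOV mouse 5 stood far above the others (rise of 1.49 ± 0.36 (SE)). The 18S ribosomal RNA gene Rn18s took 1.01 to 1.69% of counts in MOV and 0.549 to 0.762% in sham, a share that also depends on how ribosomal RNA was removed.

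Polyamine synthesis includes Amd1 and Amd2, both among the 10 largest falls. Amd1, which makes the aminopropyl donor, was at 232, 205, 199.7, 218 and 167 CPM in the D + Q MOV mice and 799.9, 1053, 895, 500.4 and 839 CPM in the D + Q sham mice. It fell by 2.00 with a standard error of 0.18, and Amd2, its near-identical copy whose reads may be shared with Amd1, by 2.39. Smox, spermine oxidase, fell by 1.18 from 47.4–118 CPM in sham. In these genes sham mouse 4 was lowest of its group. Odc1, which makes putrescine, was at 153, 184, 134, 178 and 193 CPM in MOV and 218, 145, 167, 168 and 143 CPM in sham and did not pass the test (0.00 ± 0.13 (SE)). Sat1, which acetylates spermidine and spermine, rose by 1.27 and Srm, spermidine synthase, by 1.03. Over the list 3 rose and 5 fell of 10, with a median of -0.16 (0.21 under total counts).

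At the neuromuscular junction, where the nerve meets the fiber, 9 genes rose and 4 fell of 17 (median 0.50, with 11 higher and 2 lower under total counts). Subunits of the acetylcholine receptor and their organizer Musk moved differently although each promoter below holds CAGCTG, an E-box of the kind that MyoD and myogenin bind, which is why they are shown. As above, the letters end at the base before the start (RefSeq, GRCm38.p6), and capitals mark the motif, which reads the same on both strands. They are those of Chrng (chr1:87205651-87205810, plus strand), Chrna1 (chr2:73580339-73580498, minus strand), Chrne (chr11:70619195-70619354, minus strand) and Musk (chr4:58285802-58285961, plus strand).
Chrng: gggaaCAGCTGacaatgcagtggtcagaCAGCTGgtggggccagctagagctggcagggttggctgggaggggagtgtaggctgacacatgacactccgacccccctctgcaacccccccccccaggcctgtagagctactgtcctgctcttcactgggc
Chrna1: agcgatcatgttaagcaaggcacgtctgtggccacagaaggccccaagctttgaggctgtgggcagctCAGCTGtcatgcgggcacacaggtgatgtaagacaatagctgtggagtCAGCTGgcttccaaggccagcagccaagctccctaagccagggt
Chrne: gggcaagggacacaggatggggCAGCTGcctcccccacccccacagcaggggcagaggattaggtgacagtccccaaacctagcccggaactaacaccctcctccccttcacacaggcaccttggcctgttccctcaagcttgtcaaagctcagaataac
Musk: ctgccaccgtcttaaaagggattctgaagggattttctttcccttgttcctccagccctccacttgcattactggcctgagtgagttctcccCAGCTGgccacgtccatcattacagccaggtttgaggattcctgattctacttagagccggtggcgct

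The matches began 155 and 132 bases before the start in Chrng, 92 and 44 in Chrna1, 138 in Chrne and 68 in Musk. Of 11 listed genes with a promoter, these 4 held the motif, against 18.3% of all symbols and 16.3% of all promoters. Chrng, the fetal gamma subunit, had 65, 54, 130, 62 and 116 counts in the MOV mice and 0, 20, 2, 0 and 0 in the sham mice. All but 2 of the sham counts came from mouse 2, and the rise was 3.95 ± 0.86 (SE) with it (adjusted p = 0.00244) and 6.92 without it. Chrna1, the alpha subunit, was at 23, 25.3, 30.8, 28.1 and 33.5 CPM in the D + Q MOV mice and 14, 14.3, 11.2, 15.6 and 13 CPM in the D + Q sham mice, a rise of 1.04 ± 0.11 (SE). The adult epsilon subunit Chrne did not pass the test (6.86–11.5 CPM in MOV, 6.26–11.2 CPM in sham), although it did under total counts (0.42). Musk fell by 1.31 from 29.7, 28.4, 29.7, 30.5 and 29.1 CPM in sham to 11.8, 13.1, 10.6, 13.6 and 10.2 CPM in MOV. Runx1, a transcription factor induced by denervation, rose by 3.43 ± 0.20 (SE).

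Mitochondrial genes fell together. All 13 mRNAs of the mitochondrial genome fell (median -0.94, and -0.58 with 13 lower under total counts). They took 9.45% ± 0.237 of counts in MOV and 14.1% ± 1.24 in sham (SD, n = 5 each, exact permutation p = 0.00794). mt-Nd1, a subunit of complex I, was at 6700.2, 7030.2, 6217, 7221 and 6474 CPM in the D + Q MOV mice and 16979, 15876, 14166, 13573 and 15139 CPM in the D + Q sham mice. It fell by 1.17 with a standard error of 0.08. All 36 nuclear complex I subunits fell as well, though by less (median -0.52), and under total counts 20 fell and 1 rose. In the TCA cycle 20 of 20 genes fell (median -0.63, 16 under total counts). Cs, citrate synthase, was at 547, 584, 484, 529.6 and 529.8 CPM in MOV and 915, 789, 803, 787 and 819 CPM in sham and fell by 0.62, and Sdha of complex II fell most (-0.94).

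Fatty acid uptake and oxidation fell in 21 of 22 genes (median -0.70). Ucp3, an uncoupling protein of muscle, fell by 1.59 and Cpt1b, which admits fatty acids to mitochondria, by 0.85, the latter from 315–356 CPM to 164–204 CPM. The single riser was Fabp4 of endothelial and fat cells (0.19 ± 0.07 (SE), with overlap), and its call was lost without MOV mouse 1, MOV mouse 5, sham mouse 2 or sham mouse 3 (adjusted p = 0.0847, 0.0615, 0.0654 and 0.0889 from edgeR). Regulators of mitochondrial biogenesis fell in 9 of 12 and rose in 1 (3 higher and 4 lower under total counts). Ppargc1a, PGC-1 alpha, was at 25.1, 51, 22.1, 36.9 and 34.3 CPM in the D + Q MOV mice and 52.4, 53.9, 54.4, 61.6 and 60 CPM in the D + Q sham mice. MOV mouse 2 came close to the sham mice, and the fall of 0.74 (adjusted p = 0.0115) did not pass with total-count scaling (adjusted p = 0.1). Ppara, the lipid-sensing receptor, fell by 1.13.

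Glycolysis and glycogen genes fell in 19 of 25 and rose in 5 (median -0.58). The falls included Pygm, muscle phosphorylase (3949.6, 3981, 3516, 4187 and 3124 CPM in MOV, 6856, 7222, 7861, 7632 and 7492 CPM in sham), which fell by 0.98, Aldoa, which fell by 0.68, and Fbp2, muscle fructose bisphosphatase, which fell by 1.85. The risers were Hk1 (1.48), Pgam1 (1.32), Pfkp (1.18), Eno1 (0.90) and Pfkl (0.65). In creatine and adenylate buffering 3 genes rose and 5 fell of 9. Ckm, the muscle creatine kinase, fell by 0.74 and Ckb, the brain form, rose by 2.37 ± 0.12 (SE) from 5.38–8.87 CPM to 29.9–37.8 CPM, and Gatm, which makes the creatine precursor, rose by 2.19. Pentose phosphate and serine synthesis genes rose in 8 of 14 and fell in 3 (11 higher and 1 lower under total counts). Psat1 (2.33) and Phgdh (2.32), both of serine synthesis, rose most, and Shmt1 fell by 1.04.

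Calcium release and excitation fell in 13 of 17 genes and rose in 0 (median -0.65), and total-count scaling left 11 lower and 5 higher. Clcn1, the chloride channel that steadies the fiber membrane, was at 122, 130.0, 119, 129 and 101 CPM in the D + Q MOV mice and 258, 278, 307, 275 and 292 CPM in the D + Q sham mice, a fall of 1.23. Ryr1, the calcium release channel, fell by 0.71 and the sodium channel Scn4a by 1.06. Of the most abundant transcripts, Ttn (titin) fell by 0.63, mt-Co1 by 0.81, mt-Cytb by 0.85 and mt-Nd4 by 0.94.

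Blood vessel genes had smaller medians than matrix genes. Endothelial markers rose in 9 of 12 and fell in 1 (median 0.57, summed level 329 to 424 CPM in MOV and 226 to 327 CPM in sham), and none passed the 1.5-fold test. Under total counts 11 of them rose and 0 fell. Pecam1, an adhesion protein of endothelium, rose by 0.71 ± 0.11 (SE), Kdr, the main VEGF receptor, did not pass (0.16 ± 0.13 (SE), but 0.52 and past the test under total counts) and Flt1, the decoy receptor, fell by 0.26. Vegfa was at 178, 256, 183, 194 and 229.6 CPM in the D + Q MOV mice and 363, 305, 239, 309 and 318 CPM in the D + Q sham mice. MOV mouse 2 overlapped sham mouse 3, and the fall of 0.56 had an adjusted p of 0.00145, or 0.157 under total counts. Of 15 genes of angiogenic factors and hypoxia, 6 rose and 4 fell (median 0.35, with 10 higher and 2 lower under total counts). Over all genes tested, 34.4% rose and 30.9% fell. Fgfbp1, an FGF carrier of muscle fibers and capillaries, fell by 2.81 from 4.61–9.78 CPM to 0.414–1.37 CPM, whereas Apln, the vascular peptide apelin, rose by 3.01 ± 0.17 (SE), its receptor Aplnr by 2.50 and Hif1a, the oxygen-regulated factor, by 1.67 ± 0.07 (SE).

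Genes of the cell cycle rose in 21 of 23 (median 2.57, and 21 with a median of 2.67 without sham mouse 2). Mki67, a protein of dividing cells, had 186, 168, 176, 157 and 182 counts in the MOV mice and 4, 20, 2, 1 and 3 in the sham mice. Sham mouse 2 again had the most, and the rise was 4.54 ± 0.46 (SE) with it and 5.84 without it. Top2a, the topoisomerase of dividing cells, rose by 4.43 ± 0.29 (SE) and Cdk1, the mitotic kinase, from 0–0.182 CPM to 1.47–3.99 CPM. Cdk1 entered the comparison through the MOV mice alone. Mcm2 and Mcm7 of the replication helicase did not pass the test (-0.23 and -0.03).

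Markers used for senescent cells rose in 9 of 12 and fell in 2 (median 0.98 with D + Q, 0.38 with vehicle), and 11 rose and 0 fell under total counts. Cdkn1a (chromosome 17, 29309936 to 29319701), which encodes p21, was at 55, 50.2, 58.3, 49.6 and 69.2 CPM in the D + Q MOV mice and 20.6, 20.4, 13.7, 28.6 and 14.5 CPM in the D + Q sham mice. The groups did not overlap (log2 fold change 1.53 ± 0.20 (SE), adjusted p = 7.86e-05), and with vehicle the rise was 1.73. Cdkn2a, which encodes p16 and ARF, had 23, 14, 44, 29 and 65 counts in the MOV mice and 0, 4, 0, 1 and 0 in the sham mice. It rose (adjusted p = 3.53e-05) from almost no counts, and it entered the comparison through the MOV mice alone. Its fitted size of 4.72 therefore depends on the fit and became 6.40 without sham mouse 2. In vehicle mice Cdkn2a had too few counts to test, so the vehicle median of the list leaves it out. Cdkn2b rose by 1.57 and Glb1, the lysosomal galactosidase detected by the senescence stain, by 2.04 ± 0.18 (SE). Lmnb1, a lamin that senescent cells lose, rose by 0.39 ± 0.10 (SE), which is not the senescent direction. The list count and median take no account of such directions. Cdkn1b did not pass (-0.01), and the falls were in Cdkn2c (-0.47) and Mdm2 (-0.15).

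Of the 21 tested genes of secreted inflammatory factors that senescent cells can make, 19 rose and 1 fell (median 2.19), and macrophages and fibroblasts make many of them too. The largest rises were in Timp1 (5.13), Il1b (4.52), Hgf, a growth factor for satellite cells (3.70), and Mmp3 (3.11). The size for Il1b leans on few sham counts.

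Kinases that dasatinib inhibits rose in 17 of 19 tested and fell in 1 (median 1.25 with D + Q and 1.40 with vehicle). Fgr, a Src-family kinase of myeloid cells, rose by 3.28 ± 0.31 (SE) from 4, 3, 5, 3 and 8 counts in the sham mice. It entered the comparison through the MOV mice alone. Pdgfra, the receptor of fibro-adipogenic progenitors, was at 50, 45.2, 40.4, 38.9 and 35.3 CPM in the D + Q MOV mice and 17.1, 18.7, 30.1, 19.7 and 23.5 CPM in the D + Q sham mice, a rise of 0.94 ± 0.15 (SE), and Pdgfrb, its relative on pericytes, rose by 1.24. Abl1 did not pass the test (-0.02) and Abl2 fell by 0.23, but with total-count scaling all 19 genes rose. In the BCL2 family, regulators of cell death, 11 of 15 genes rose and 1 fell. Bcl2 itself fell by 0.68 (7.83, 6.55, 6.17, 9.99 and 8.16 CPM in MOV, 11.9, 15.2, 12.4, 11.2 and 11.4 CPM in sham). Bcl2l1, which encodes BCL-XL, rose by 0.80 ± 0.11 (SE), Pmaip1, the death-promoting NOXA, by 3.02 and Bcl2a1b, one of several near-identical copies of a survival gene of myeloid cells, by 4.98. Bcl2a1b had 1, 3, 2, 0 and 2 counts in the sham mice. It entered the comparison through the MOV mice alone, and its size leans on few counts.

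Clock genes made up another list with most members lower, 12 of 17 against 2 higher (median -0.94, with 10 lower and 4 higher under total counts). The clock drives many of its outputs through CACGTG, the E-box that CLOCK and BMAL1 bind, and promoters of 2 lower genes that hold it are shown, ending at the base before the start (RefSeq, GRCm38.p6) with the motif in capitals. Ciart, a repressor within the clock, comes from chr3:95882229-95882388, minus strand and Bhlhe41, another repressor, from chr6:145865421-145865580, minus strand. The motif reads the same on both strands.
Ciart: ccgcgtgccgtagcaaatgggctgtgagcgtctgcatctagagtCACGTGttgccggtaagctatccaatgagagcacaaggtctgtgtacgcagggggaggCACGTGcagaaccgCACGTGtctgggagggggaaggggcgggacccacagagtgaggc
Bhlhe41: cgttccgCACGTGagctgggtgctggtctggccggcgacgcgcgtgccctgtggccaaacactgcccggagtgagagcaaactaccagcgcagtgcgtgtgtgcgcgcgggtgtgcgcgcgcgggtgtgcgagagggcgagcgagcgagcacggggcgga

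In Ciart the matches began 116, 58 and 44 bases before the start, and in Bhlhe41 153 bases before it. Of 14 listed genes with a promoter, 5 held the motif (Bhlhe41, Ciart, Cry1, Per1 and Tef), against 8.09% of all symbols and 7.15% of all promoters. Cry1 and Per1, which also hold it, did not pass the test (-0.14 and 0.55). Dbp (chromosome 7, 45354512 to 45359627), a transcription factor that the clock drives strongly, was at 16.9, 13.2, 19.7, 17.6 and 18.6 CPM in the D + Q MOV mice and 48.9, 78.7, 94.1, 67.1 and 85.1 CPM in the D + Q sham mice. It fell by 2.12 with a standard error of 0.18. Ciart fell by 1.53 with overlap between groups, and Bhlhe41, Tef and Nr1d1, the last of which encodes the repressor REV-ERB alpha, fell by 1.01, 0.96 and 1.11. Npas2, a partner of BMAL1, rose by 2.57 ± 0.27 (SE) from 0.631–2.93 CPM to 8.01–12.4 CPM, and Arntl, which encodes BMAL1, rose by 0.50 ± 0.08 (SE). The labels give no hour of collection for any mouse, and whether it differed between groups was not tested.

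Antioxidant genes of the NRF2 pathway fell in 12 of 18 and rose in 2 (median -0.42, with 6 lower and 4 higher under total counts). Nqo1, a quinone reductase, was at 9.85, 12.1, 13.3, 10.7 and 13.3 CPM in the D + Q MOV mice and 27.2, 27.9, 27.9, 30.7 and 25.5 CPM in the D + Q sham mice, a fall of 1.23, and Gpx3, the secreted glutathione peroxidase, fell by 1.22. Hmox1, heme oxygenase of macrophages, rose by 1.38 ± 0.15 (SE). Endoplasmic reticulum chaperones and unfolded protein response genes rose in 15 of 20 and fell in 4 (median 0.59, with 15 higher and 1 lower under total counts), led by Atf3, a stress transcription factor (1.88), and Pdia3, a disulfide isomerase (1.79 ± 0.12 (SE)). Chac1, a glutathione-degrading target of the stress response, fell by 1.30 with overlap. Cytosolic heat shock genes were mixed, 9 higher and 5 lower of 16, or 11 higher and 1 lower under total counts. Hspa1b, an inducible HSP70 whose reads may be shared with Hspa1a, was at 19.7, 24.2, 21.6, 26.5 and 55.6 CPM in MOV and 7.59, 5.22, 5.87, 8.3 and 10.2 CPM in sham, with MOV mouse 5 far above the rest (1.98 ± 0.35 (SE)).

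Of 8 genes that the study discusses for D + Q against vehicle after MOV, 6 rose with MOV in D + Q mice and 0 fell. The risers were Mmp14, Igf1, Fmod, Dcn, Ddit4 and Plau, all given above. Adamts1, a matrix protease, was at 48.9, 60.4, 48.2, 47.8 and 89.2 CPM in the D + Q MOV mice and 38.4, 38.6, 54.5, 44.2 and 55.1 CPM in the D + Q sham mice. MOV mouse 5 was highest and the groups overlapped (0.35 ± 0.20 (SE), adjusted p = 0.164), and neither it nor Cryab passed the test. Under total counts both did (0.72 with an adjusted p of 0.0131 and 0.54 with an adjusted p of 0.000229 from edgeR). The study reports Ddit4 and Cryab as lower with D + Q than with vehicle and the others as higher. That contrast is not the one tested here. In vehicle mice 7 of the 8 rose with MOV and 0 fell (median 1.08, against 1.06 with D + Q). In the interaction 0 of them passed. The study chose these genes on some of the same mice, so their count is no independent evidence.

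Set beside the D + Q mice, vehicle mice gave 8831 called genes of 14601 (60.5%), 4482 of them higher (30.7%) and 4349 lower (29.8%), in a comparison that shares no mouse with the D + Q one. Over the 63 lists, the D + Q and vehicle medians differed by at most 0.25 in 46 and by more than 0.5 in 10. They were, for example, 4.59 with D + Q and 4.74 with vehicle for collagens, 2.81 and 2.59 for macrophage markers, -0.52 and -0.50 for complex I and -0.94 and -0.91 for the clock. Wider gaps were 0.23 and 0.94 for the Z-disc and titin list, 0.64 and 1.21 for satellite cell and myogenic genes, 1.23 and 0.70 for the IGF axis, 1.38 and 0.79 for interferon-stimulated genes, 0.98 and 0.38 for senescence markers and 2.94 and 1.93 for slow-fiber markers of soleus, in the same order. Those for T and NK cells (3.17 and -0.32) and neutrophils (0.64 and 2.26) rest on 3 and 2 tested genes. A vehicle median covers only list members that were also tested in vehicle mice, which leaves out Cdkn2a among the senescence markers. The gaps between list medians were not tested. The difference itself was tested gene by gene with the interaction over all 20 mice. Of 15700 genes, 2 passed at an adjusted p under 0.05 (0.0127%), and 897 did at an unadjusted p under 0.05 (5.71%). Most genes thus gave no detectable difference in their response to MOV between D + Q and vehicle mice at this number of mice, which does not show that the responses were equal. Vehicle MOV mice were less alike than D + Q mice, with a Spearman correlation of 0.972 between mice 2 and 4. Leaving out a mouse gave 798 (vehicle sham mouse 4) to 1232 (vehicle MOV mouse 4) genes at an unadjusted p under 0.05 in edgeR.

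**Figure D5:**
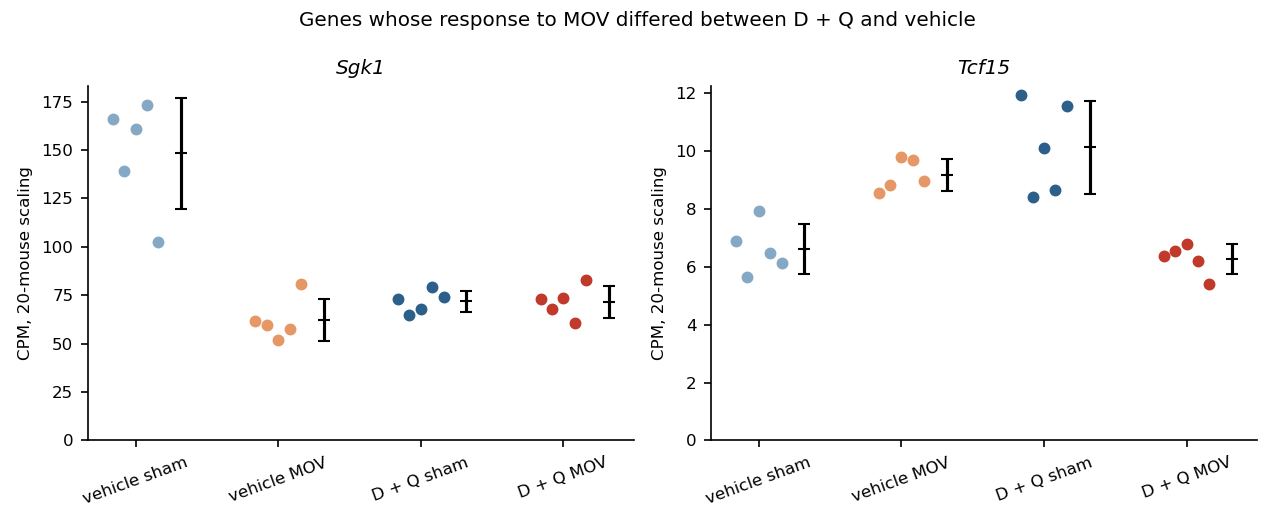
CPM of Sgk1 and Tcf15 in each of the 20 mice, scaled over all 20, with mean and SD (n = 5) beside the points of each group. Sgk1 was high in the vehicle sham mice only (103 to 173 CPM), and Tcf15 was lower with MOV in D + Q mice and higher with MOV in vehicle mice.

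Sgk1 (chromosome 10, 21758083 to 21875802) was at 72.9, 68, 73.8, 60.7 and 83.1 CPM in D + Q MOV, 72.9, 64.8, 67.8, 79.2 and 74.3 CPM in D + Q sham, 61.9, 59.7, 52.1, 57.5 and 80.6 CPM in vehicle MOV and 166, 139, 161, 173 and 103 CPM in vehicle sham mice on the scaling of all 20 mice. The vehicle sham mice stood above all others, and the other groups overlapped. Sgk1 did not pass the test of MOV against sham with D + Q (0.04) and fell with vehicle (-1.24). The interaction was 1.25 on the log2 scale (SE 0.18, adjusted p = 0.00676). Tcf15 (chromosome 2, 151985474 to 151991034), a transcription factor of capillary endothelium, was at 6.38, 6.54, 6.8, 6.21 and 5.4 CPM in D + Q MOV and 11.9, 8.41, 10.1, 8.65 and 11.6 CPM in D + Q sham mice. In vehicle mice it was at 8.56, 8.82, 9.8, 9.67 and 8.96 CPM with MOV and 6.9, 5.64, 7.93, 6.47 and 6.13 CPM with sham. The groups did not overlap within either treatment, and they were ordered in opposite ways. Tcf15 fell by 0.65 with D + Q (adjusted p = 0.000159) and rose by 0.48 with vehicle (adjusted p = 0.00216), an interaction of -1.16 (SE 0.16, adjusted p = 0.00328). The D + Q fall did not pass with total-count scaling (adjusted p = 0.0595). Next in order by p were Gm15443, a predicted gene, Eng, an endothelial receptor of TGF-beta ligands, and Efna1, an ephrin of endothelium, none of which passed (adjusted p = 0.555 for each). Eng rose by 0.61 with D + Q and by 1.12 with vehicle, and Efna1 fell by 0.55 with D + Q and was at 0.18 with vehicle.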

How the data were processed

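RNA-seq of whole plantaris muscle from 20 mice (5 per group) was analysed from a table of estimated counts per gene. The authors aligned the reads with STAR 2.7.8a to GRCm39 and quantified them by expectation maximization in Partek Flow, and the deposited expected counts (29.8% of values not whole) were rounded here. Whether strand was used in counting is not given in the sources used here, and columns of single mice were mapped by the labels. Genes that reached 10 counts in 5 or more mice were kept. MOV and sham were compared within D + Q mice by the quasi-likelihood F test of edgeR 4.0.16 (R 4.3.3, robust, TMM scaling), within vehicle mice alike, and the interaction over all 20 mice. A test against 1.5-fold change used glmTreat. P-values were adjusted by Benjamini-Hochberg over all genes of a fit. CPM is counts per 1000000 of the TMM-scaled total. Shares were compared by two-sided exact permutation tests. DESeq2 1.42.0, limma 3.58.1 (voom), other scalings, filters and fits, and leaving out each mouse were alternatives. The test code was checked on simulated data in which few or no genes changed, with equal rises and falls. That check does not cover a shift in RNA composition such as the one seen here.

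Total counts were 18535681 to 23468048 per D + Q mouse, and no pair of mice was alike within counting noise (variance at least 6.54 times that of counting). The study gives 5 mice per group, and samples were taken as separate mice. Gene positions are those of GENCODE (GRCm39), matched for 96.1% of the genes, and 20 table rows share a name with another row. Reads of near-identical genes (myosin heavy chains, Amd1 and Amd2, Hspa1a and Hspa1b, Bcl2a1 copies) and of overlapping genes may be misassigned. Promoters are RefSeq sequences of GRCm38.p6 (250 bases before to 50 after a start), searched on both strands for the 3 motifs spelled out above. Named genes are the 10 largest rises and falls among called genes without overlap, with at least 10 CPM in a group and no predicted-gene name, up to 4 members of each list with the largest change plus any that did not pass or went against their list, a fixed list of muscle genes, the interaction genes with an adjusted p under 0.05 and the 5 with the smallest p, and the 10 genes with most counts. Other genes named within a list (for example Csf1r, Sdha, Pecam1, Mcm7 or Foxo4) were chosen after their values were seen. The comparison, its genes and the gene lists were chosen with earlier results of these data known.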

Additional observations from a re-analysis of the deposited data

Results flagged for a closer look

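In 346 tests of 173 named genes, each gene in the 5 D + Q MOV mice and in the 5 D + Q sham mice, a single mouse stood apart from its group 20 times. That number is close to the 1 in 20 that chance gives. Of these, 7 were in MOV mice. Among sham mice the value that stood apart was 25.8 CPM for Actc1, 0.304 CPM for Mymx, 119 CPM for Fstl1, 1.21 CPM for Chrng, 173 CPM for Col1a1, 413 CPM for Col3a1, 26.4 CPM for Aspn, 0.243 CPM for Cdkn2a, 1.21 CPM for Mki67 and 9.78 CPM for Fgfbp1. All 10 were values of sham mouse 2. Mymx and Cdkn2a had almost no sham counts, so a few counts in 1 mouse meet the rule. The log2 change without it was 4.48 for Aspn and -2.57 for Fgfbp1, and is given above for the others. The rest in sham mice were 450.3 CPM for Igfbp5 in mouse 4, and 23.2 CPM for Mmp2 and 915 CPM for Cs in mouse 1. Among MOV mice the values were 9.71 CPM for Wfikkn2, 46.9 CPM for Runx1, 34.5 CPM for Timp1, 17.1 CPM for Myc, 17.6 CPM for Apln, 55.6 CPM for Hspa1b and 202 CPM for Ccn1.

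The response to MOV differed between D + Q and vehicle mice in 2 genes by the interaction test of edgeR. Sgk1 did not pass the test of MOV against sham with D + Q (0.04) and fell with vehicle (-1.24), where the sham mice were high. Its interaction was 1.25 on the log2 scale (adjusted p = 0.00676), and that of Tcf15 was -1.16 (adjusted p = 0.00328).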

How the results depend on the processing

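The number of genes called between D + Q MOV and D + Q sham was 8219 to 10477 over the other tests, scalings, filters and fits, 9411 with a replicate block, and 8850 (without MOV mouse 3) to 9450 when a mouse was left out. Changes over 1.5-fold numbered 3185 to 3830 without a mouse and 2165 over a minimum of 2-fold. In the vehicle mice 7929 to 8504 genes were called without a mouse. The interaction gave 1 gene with the replicate block, where Sgk1 had an adjusted p of 0.0716, and 2 to 3 without a mouse. Replicate numbers did not pair the mice, since same-numbered mice correlated at -0.103 to 0.0247 and none correlated best with its own number. Total-count scaling turned the log2 change of Pln (0.10), Acta1 (0.0248), Igfbp5 (0.12), Odc1 (0.36) and Abl1 (0.34), with 7122 called genes in common with TMM. Of the other turned values, none of which passed the test under the main settings, Foxo1 was -0.0093 by DESeq2, -0.0088 with RLE factors and -0.0405 with all 20 mice, which also gave -0.0028 for Sgk1, -0.0230 for Chad and -0.0229 for Yap1. Odc1 was 0.0379 at a 50-count minimum, 0.0432 by limma-voom and 0.0041 with the block, and Abl1 was 0.0189 at the 50-count minimum. Without a mouse, values ran from -0.0668 to 0.0335 for Abl1, -0.23 to 0.29 for Chad, -0.0491 to 0.15 for Chrne, -0.0234 to 0.0473 for Foxo1, -0.0619 to 0.11 for Odc1, -0.0042 to 0.11 for Sgk1 and -0.0059 to 0.0836 for Yap1. Genes of a list with too few counts gave no value at the 50-count minimum. Calls on Acvr2b, Ppargc1a, Vegfa, Tcf15 and Efna1 were lost with total counts, Acvr2b and Chac1 with the block, Cd163 and Fabp4 with all 20 mice and Myh2 at a 1-count minimum. Leaving out single mice also lost Myh2 and Fabp4 (4 mice each) and Acvr2b (2 mice). Calls were gained with total counts for Myh1, Myod1, Foxo1, Sgk1, Chrne, Cryab, Adamts1, Kdr and Yap1, with the block for Igfbp5 (adjusted p = 0.0456) and Adamts1 (0.0479), and for Igfbp5 by DESeq2 and without sham mouse 4. The cause of these differences was not tested. Genes with few sham counts, such as Mymk, Chrng and Cdkn2a, have folds limited by depth.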
